A study of Mus musculus with 6 samples.

Results

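Integrins and laminins, the receptors and the basement membrane proteins through which cells hold on to their surroundings, were examined in B16F10 cells, an established mouse melanoma line. The genes were chosen by symbol alone (names of integrin α and β chains and of laminin α, β and γ chains, upper and lower case as written). This rule found 37 of the 27179 genes of the deposited table, of which 18 encode integrin α chains, 8 integrin β chains and 11 laminin chains. The cells, labelled wild type, were grown in DMEM with fetal bovine serum, and 3 libraries came from cells given 0.01% ozonated olive oil (OZO) and 3 from cells given 0.01% olive oil (OLO), each for 6 h. RNA from these 6 libraries was sequenced, and the level analysed here is the authors' mean over all of them of log2 CPM, the read counts scaled to a common library size. That mean joins OZO and OLO libraries, so it has no spread between replicates, and no difference between OZO and OLO is given for any gene. All libraries come from the same cell line, so the levels describe this line in culture.

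An integrin is a pair of 1 α and 1 β chain that spans the cell membrane, binding matrix or other cells outside and, through talin and kindlin, actin inside. The α chain largely sets the ligand, which can be collagen, laminin, or proteins with the RGD motif such as fibronectin and vitronectin. A laminin is a trimer of an α, a β and a γ chain that assembles into the sheet of the basement membrane. In melanoma these receptors are known for their part in attachment, migration and spread to other organs.

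Of the 37 genes, 22 were expressed, which here means an average log2 CPM of 0 or more, that is 1 CPM or more, and 15 were silent by that limit. The share expressed was 59.5%, beside 43.7% of all 27179 genes (11878 genes). All 37 members had reads, whereas 6025 of the 27179 genes had none. Among the 21154 genes with reads alone, the median percentile of the expressed members was 62.42, in place of 70.75 among all genes. The 22 expressed genes had a median average of 3.88 on the log2 CPM scale, beside 4.98 for all genes past the same limit, and ranged from 0.10 for Itgae to 9.94 for Itgb1. Itgb1 lay at the 99.7th percentile of all genes and was number 74 from the top. These places and shares among all genes rest on CPM without division by transcript length, so they depend on length as well as on the amount of RNA. The 15 silent genes ranged from -4.64 for Lamb3 to -0.71 for Itga2, and none of them was wholly without reads. Genes without any read share the lowest value of the table, -5.30, so the silent members sat between that floor and the limit. Just inside the limit were Itgae (0.10) and Itgb8 (0.34), and Itga2 (-0.71) was the nearest outside it.

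**Figure D1:**
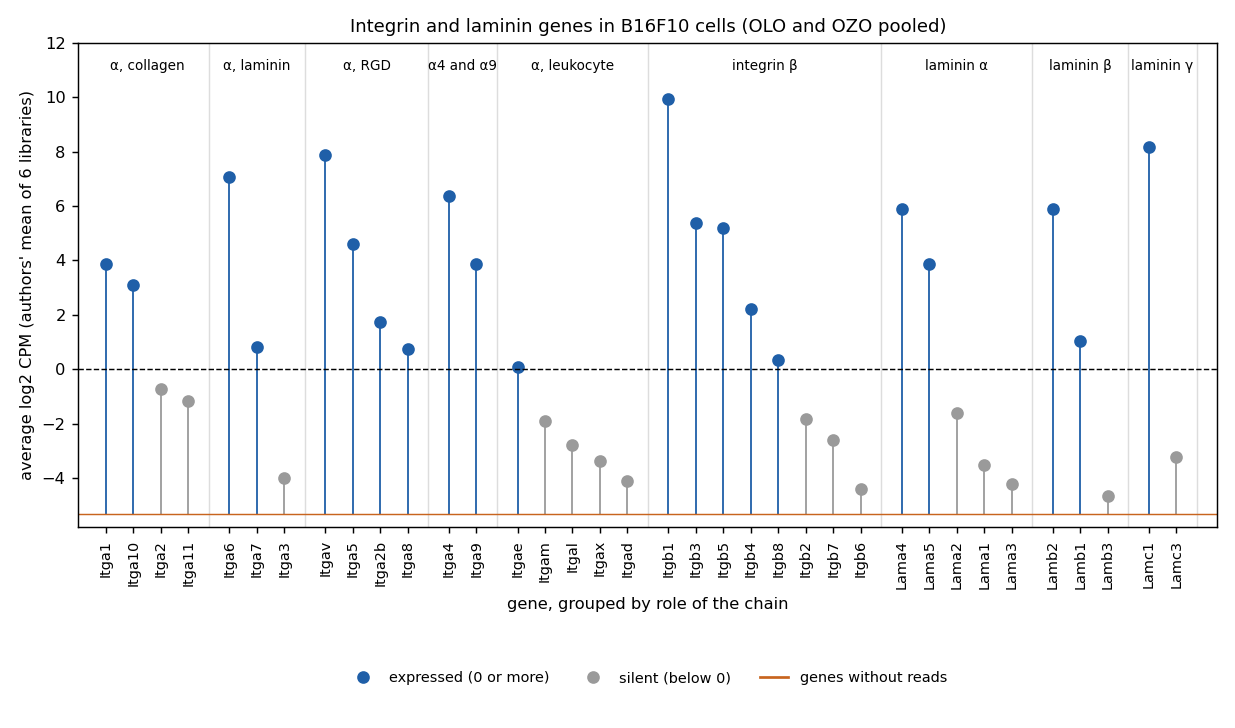
Average log2 CPM (vertical axis, authors' mean of 6 libraries) of 36 of the 37 genes, grouped by role of the chain, with the limit at 0 (dashed) and the value of genes without reads at -5.30 (orange). Each group of α chains except the RGD-binding chains and α4 with α9 holds both expressed (blue) and silent (grey) genes, and Itgb1 stands highest at 9.94.

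The reads behind these levels differed widely. Voom raises each count by 0.5 before taking logs, so the floor value gives a geometric mean library size of 19641946 reads, and 1 CPM stood for 19.6 reads. Itgb1 rested on at least 115651 reads over the 6 libraries and Itgae on at least 123. For the rarest genes the average fixes the product over the libraries of (2 × reads + 1), which must be a whole odd number, and it came out whole to within 1e-06 for 100% of the 5479 genes with a product under 10000. For Lamb3, the β chain of the epidermal laminin, that product was 15, so 3 to 7 reads were counted in all 6 libraries together. The product for Itgb6, a β chain of epithelia, was 45, and the total was 4 to 22 reads. Itga3, an α chain that binds laminin in epithelia, had 6 to 112 reads, with the upper end reached only if all were in the same library.

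**Figure D2:**
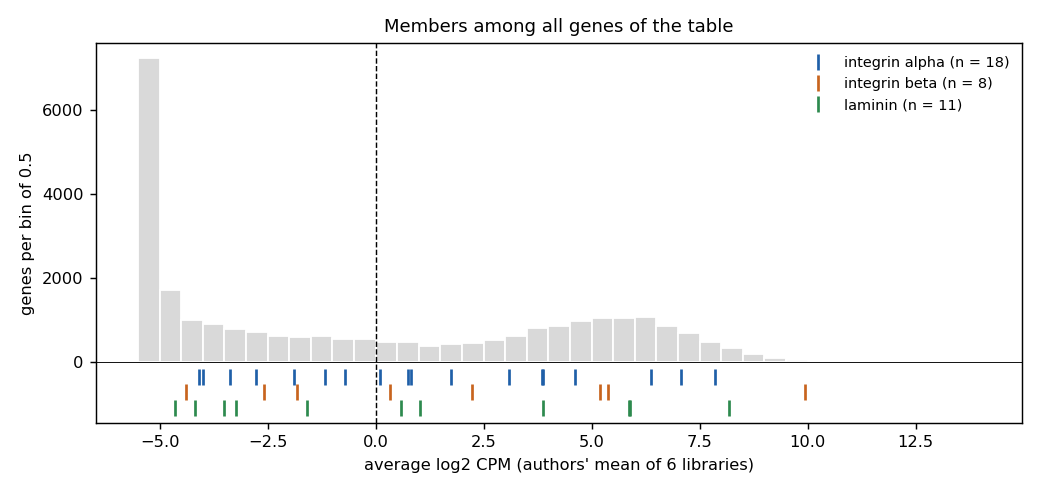
Number of genes per bin of 0.5 in average log2 CPM (authors' mean of 6 libraries) for all 27179 genes (grey bars), with the members as coloured ticks under the axis and the limit at 0 (dashed). Members spread from Lamb3 at -4.64 to Itgb1 at 9.94, and no member lies among the highest genes to the right of it.

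The label of the cells was compared with marker genes. Among all 27179 genes, 43.7% passed the limit. All 8 melanocyte and melanoma markers were expressed, with average log2 CPM from 6.76 for Sox10 to 12.78 for Dct, an enzyme of melanin synthesis. None of the 7 keratinocyte and epithelial markers was expressed, and their highest was Cdh1 at -1.80. Of 7 leukocyte markers, which include the member Itgal, 2 were past the limit, Cd68 (2.45) and Lyz2 (0.84), while the defining Ptprc was at -3.83 and Cd3e at -4.77. Of 4 endothelial markers Pecam1 alone was past it (0.28), and Kdr was at -4.52. Of 5 fibroblast markers, Pdgfra (1.71), Col1a1 (0.76) and Col1a2 (0.21) were past the limit, and of 3 platelet markers none was. The part of other cells in the members' levels was not tested.

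Levels of different genes are better set beside each other per length, because a longer transcript gives more reads. The averages were therefore also expressed as CPM per kb of the gene's longest annotated transcript. On this scale Itgb1 was first, with 257 CPM per kb, followed by Lamc1 with 38.2, Itgav with 33.0 and Itga6 with 31.2. These 4 genes were also the first 4 when the length of all exons joined or the coding length was used instead. Itgb1 stayed first and Itga6 last of these, whereas Lamc1 and Itgav exchanged places with the coding length. Of the 18 other expressed genes, 17 changed place with the choice of length, by 5 places at most (Itgb8). With no replicate values, neighbours in this order cannot be told apart by an error.

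Itgb1 carried most of the β chain level. It encodes integrin β1, the common partner of most α chains, and lies on chromosome 8 from 128685654 to 128733200 on the plus strand (GENCODE M21, GRCm38, the same assembly as mm10). Its 257 CPM per kb were 93.0% of the summed level of the 8 β chain genes. Itgb5, whose protein pairs with αV to bind vitronectin, had 11.2 CPM per kb, or 4.06% of that sum. Itgb3, the β chain of the αV receptor for vitronectin that is well known in melanoma, had 7.16 CPM per kb and 2.59%, or 3.95% with the coding length. These genes changed order with the length used, since the difference of Itgb5 minus Itgb3 on the log2 CPM per kb scale was 0.65 with the longest transcript and -0.22 with the coding length. Itgb4, the β chain of hemidesmosomes, reached 0.759 CPM per kb, and Itgb8, known for its part in activating TGF-β, 0.151. The 3 silent β chains were Itgb2 of leukocytes (average log2 CPM -1.82), Itgb7 of lymphocytes (-2.59) and Itgb6 of epithelia (-4.38).

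Among the α chains, 2 genes made up most of the level. Itgav, the α chain shared by 5 heterodimers that mostly recognise RGD, lies on chromosome 2 from 83724397 to 83806916 and had 33.0 CPM per kb, 38.5% of the summed α chain level. Itga6, a laminin receptor chain on the same chromosome from 71745616 to 71858416, had 31.2 CPM per kb and 36.4%. Their levels differed by 0.08 on the log2 CPM per kb scale with the longest transcript, by 0.54 with joined exons and by 0.86 with the coding length, with Itgav the higher in each. Itga4, which binds VCAM1 and fibronectin, followed with 8.55 CPM per kb, and Itga5, the classical fibronectin receptor chain, with 5.55.

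The laminin-binding α chains differed widely from each other. Itga6 averaged 7.07 on the log2 CPM scale, at the 93.5th percentile of all genes. Itga7, known best from muscle, averaged 0.83, and per length Itga6 was 70.5 times as high. Itga3 averaged -3.99 and was silent. Of the other laminin receptors, Dag1, which encodes dystroglycan, averaged 7.75, whereas Bcam, a receptor for laminin α5, averaged -1.24.

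All 4 RGD-binding α chains passed the limit, but Itga2b and Itga8 did so at low levels. Itga2b, the platelet chain, averaged 1.75 on the log2 CPM scale, although the platelet markers Pf4 (-5.03), Gp1bb (-4.30) and Gp9 (-2.70) were silent. Itga8, known from kidney and smooth muscle, averaged 0.76. Of the 4 collagen-binding chains, Itga1 (3.86) and Itga10 (3.08) were expressed and Itga2 (-0.71) and Itga11 (-1.16) were silent. For Itga10, 33.5% of the exon bases are shared with Gm42957, a gene model on the same strand, so its reads could belong to either. Itga9, which binds tenascin and other ligands, averaged 3.87, and Itga4 averaged 6.38. Exons of Itga4 overlap Cerkl on the opposite strand over 8.04% of their bases, and Cerkl itself averaged 1.21.

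Of the 5 α chains of leukocytes, 4 were silent, namely Itgam (-1.88), Itgal (-2.77), Itgax (-3.38) and Itgad (-4.10) on the log2 CPM scale. Their only β partner, Itgb2, was silent as well. The fifth, Itgae, the chain of lymphocytes that bind E-cadherin, averaged 0.10, while its β partner Itgb7 averaged -2.59 and its ligand Cdh1 -1.80. For Itgam, 68.7% of the exon bases are shared with the gene model Gm49368 on the same strand.

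The 24 known integrin heterodimers were then read for the presence of RNA for each chain. Both chains were expressed for 14 of them. With β1, 9 of 12 possible α chains were expressed, and the exceptions were the silent Itga2, Itga3 and Itga11. Ranked by the lower of the 2 chains, αVβ1 (33.0 CPM per kb) and α6β1 (31.2) came first, then αVβ5 (11.2), α4β1 (8.55), αVβ3 (7.16) and α5β1 (5.55). The order of αVβ5, α4β1 and αVβ3 among themselves changed with the length used. The 12 α chains that can pair with β1 summed to 84.3 CPM per kb, so Itgb1 RNA was 3.05 times the sum of its partners. That ratio was 4.59 with joined exons and 2.52 with the coding length. The sum counts Itgav, Itga6 and Itga4 in full, although their chains can also pair with other β chains. With β1 the lower chain was always the α chain, whereas in the αV pairs with β3, β5 and β8 it was the β chain. For α6β4 the β chain was lower as well, with Itga6 41.1 times as high as Itgb4, or 22.2 times with joined exons. RNA levels do not give the amount of receptor at the surface, which was not measured in these libraries.

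**Figure D3:**
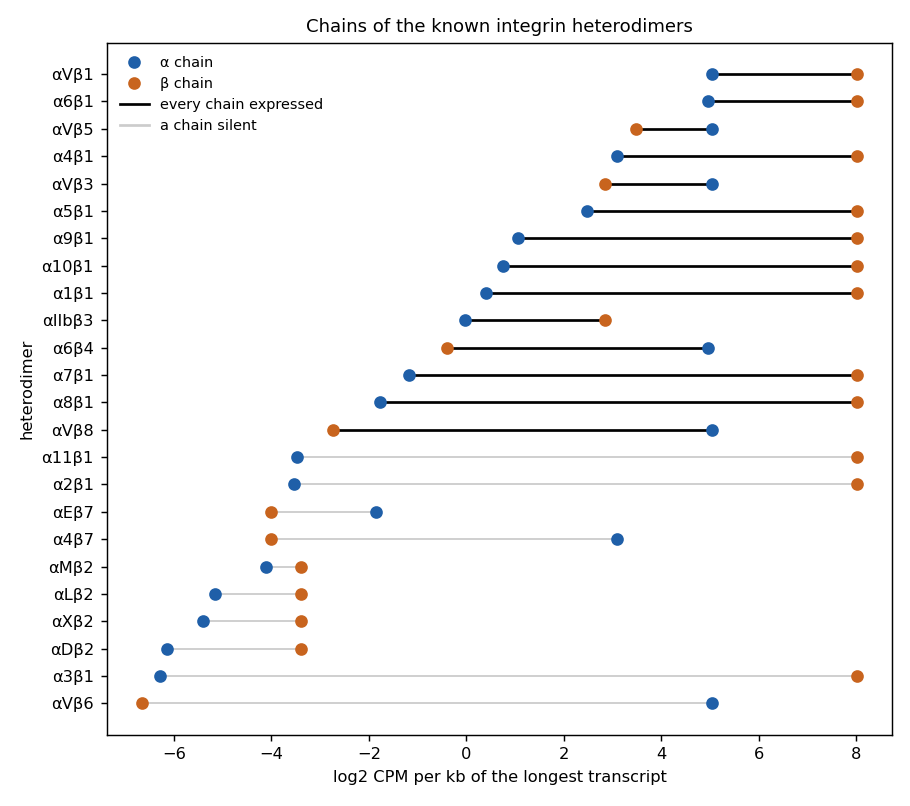
Levels of the α chain (blue) and β chain (orange) of each of the 24 known integrin heterodimers as log2 CPM per kb of the longest transcript, ordered by the lower chain, with black lines for the 14 pairs with both chains expressed. The β1 pairs share the highest point, 8.01, and the pairs αVβ1 and α6β1 stand at the top.

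Among the laminins, 1 chain of each kind led. Lamc1, the γ1 chain found in most laminins, lies on chromosome 1 from 153218922 to 153332786, averaged 8.18 on the log2 CPM scale and held 99.2% of the summed γ chain level per length. Lamb2, the β2 chain, averaged 5.88 and held 96.6% of the β chain level. Lama4, the α4 chain known from vessel walls and soft tissues, averaged 5.89 and held 87.9% of the α chain level, and Lama5 held 11.6%. With joined exons Lama5 held 20.8%. Lamb1, the β1 chain that is widespread in embryonic tissue, averaged 1.04, and Lamb2 was 29.4 times as high per length, or 46.7 times with joined exons. The silent laminin genes were Lama1 (-3.50), Lama2 (-1.59), Lama3 (-4.19), Lamb3 (-4.64) and Lamc3 (-3.24).

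Of 14 known laminin trimers, 4 had every chain expressed, and these were laminin-421, laminin-521, laminin-411 and laminin-511. For laminin-421 the lowest chain was Lama4, with 9.81 CPM per kb, beside 10.4 for Lamb2 and 38.2 for Lamc1. Their relation depended on the length used. Lamc1 was 3.89 times as high as Lama4 with the longest transcript and 7.15 times with joined exons. Lamb2 over Lama4 was 1.06 with the longest transcript, 1.96 with joined exons and 0.999 with the coding length. For laminin-521 the lowest was Lama5 with 1.30 CPM per kb. For laminin-411 and laminin-511 it was Lamb1 with 0.355. Laminin-111, the main laminin of early embryos, had 2 of 3 chains expressed and lacked Lama1.

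**Figure D4:**
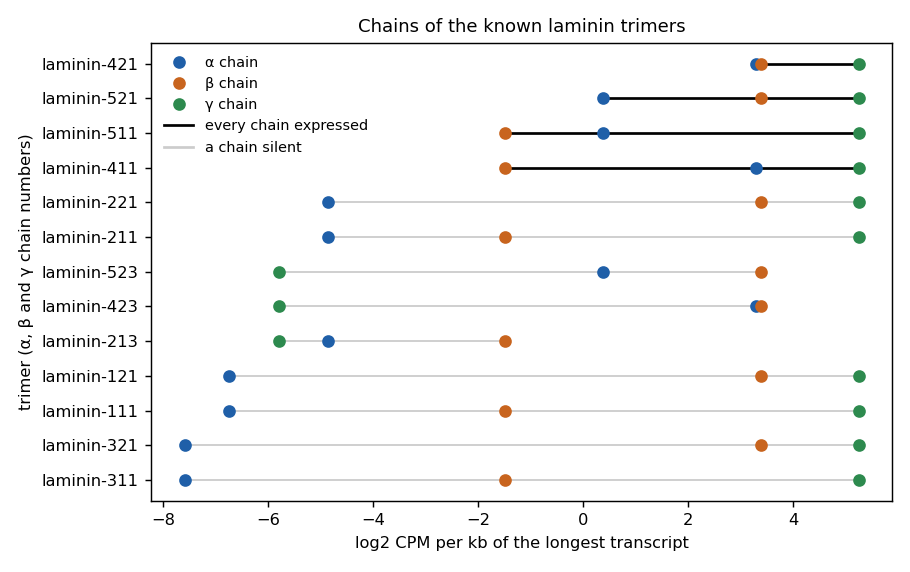
Levels of the α (blue), β (orange) and γ (green) chains of 13 of the 14 known laminin trimers as log2 CPM per kb of the longest transcript, ordered by the lowest chain, with black lines for the 4 trimers with every chain expressed. In laminin-421, at the top, the lowest chain is at 3.29 and the highest at 5.25.

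Genes that work with integrins and laminins were listed as well. Of 21 genes of the adhesion machinery, 20 (95.2%) were expressed, beside 43.7% of all genes. Their median average was 6.06 on the log2 CPM scale, beside -1.49 for all genes. The highest averages on this scale, which is not per length, were those of Flna (9.38), an actin crosslinker, Tln1 (8.15), which encodes talin, and Lims1 (7.71), an adaptor of integrin-linked kinase. Of the kindlin genes, Fermt2 averaged 7.30 and the leukocyte kindlin Fermt3 0.54, whereas the epithelial Fermt1 had no reads. Of 12 genes for basement membrane proteins and other laminin receptors, 11 (91.7%) were expressed, beside the same 43.7%. Their highest averages were those of Rpsa (10.17), a ribosomal protein that is also described as a laminin receptor, Sparc (7.87), a matrix glycoprotein, and Dag1 (7.75). Nid1, the nidogen that links laminin to collagen IV, averaged 5.12, and Hspg2, which encodes perlecan, 7.54. All 8 tetraspanins and other partners of laminin-binding integrins were expressed (100%, beside 43.7%). The highest averages were those of Dst (8.86), a linker of integrins to the cytoskeleton, the tetraspanin Cd63 (8.78) and Bsg (8.26), which encodes basigin. Per length the order differed, with 7.65 for Bsg, 7.25 for Cd63 and 6.84 for Cd81 at the top on the log2 CPM per kb scale, and 4.31 for Dst, below Cd151 and Cd9 as well. Cd151, a tetraspanin that binds laminin receptors directly, averaged 6.35 on the log2 CPM scale and 5.45 per kb.

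Of 13 genes for matrix and cell-surface ligands of integrins, 5 (38.5%) passed the limit, beside 43.7% of all genes. The median average of the 13 was -1.80 on the log2 CPM scale. Fn1, which encodes fibronectin, averaged 5.73, Spp1, which encodes osteopontin, 2.50 and Thbs1, a thrombospondin, 2.40. Col1a1 and Col1a2 were just past the limit, as given above. The 8 silent genes were Icam2 (-1.62), Cdh1 (-1.80), Vtn (-1.91), Fbn1 (-2.33), Icam1 (-2.63), Vcam1 (-2.72), Col3a1 (-4.18) and Tnc (-4.26). Vtn, which encodes vitronectin, was thus silent in cells that expressed the αV, β3 and β5 chains, and Vcam1 in cells that expressed α4. Fn1, whose protein αV and α4 chains also bind, was expressed, and ligands from the serum were not measured.

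**Figure D5:**
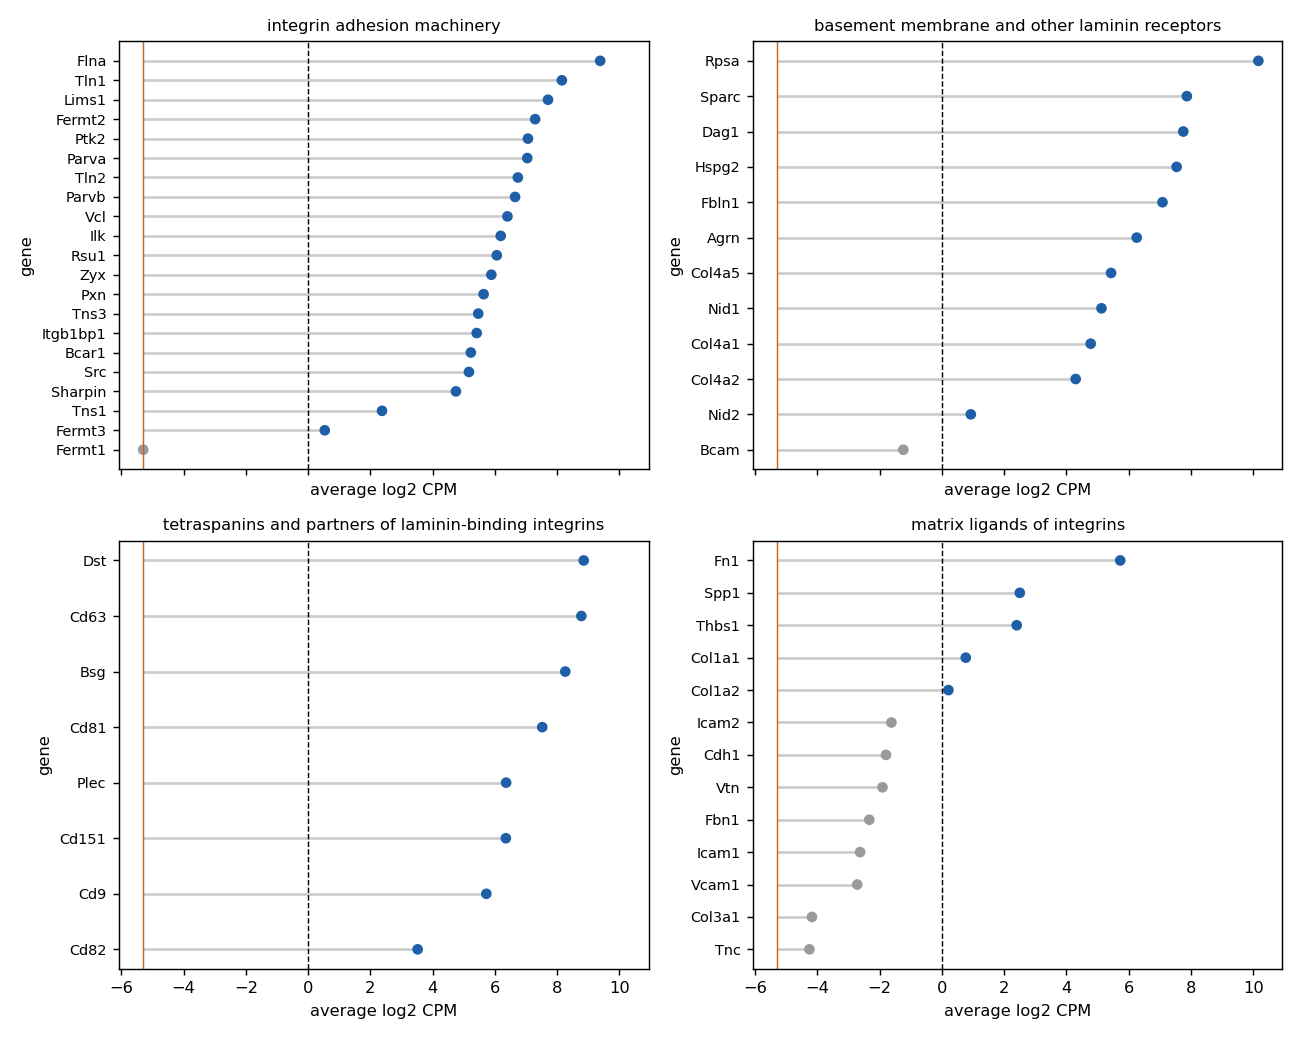
Average log2 CPM (horizontal axis, authors' mean of 6 libraries) of each gene in 4 lists, with the limit at 0 (dashed) and the value of genes without reads at -5.30 (orange). Nearly all genes of the adhesion machinery, basement membrane and tetraspanin lists lie right of the limit, as do 5 of the 13 ligands.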

How the data were processed

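RNA of 3 OLO and 3 OZO libraries of B16F10 cells, made with a directional kit, was sequenced. Per the methods and the submitters' processing notes, alignment by the authors used HISAT2 (2.1.0) on mm10, counting used featureCounts (2.1.1), and limma-voom (limma 3.58.1) followed. Strand use in counting, filters and scaling are not given in the sources used here. The deposited genes include 6025 without reads, so these had not been filtered out. The authors deposited 1 table of 27179 genes with the average log2 CPM over the 6 libraries, the only measure used. Its remaining columns (log2 fold change, moderated statistic, p-value, adjusted p-value and log odds of OZO against OLO) hold the authors' own comparison and were not used. No counts per library were analysed, so no test was run and no replicate error is given.

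Library size was derived from the value shared by the 6025 genes without reads and the 0.5 reads added by voom. The lower limits on reads use that an arithmetic mean is at least the geometric mean, and both steps were tested on simulated data. The ranges of read totals are the lowest and highest totals that give the product, and they hold no counting or replicate error. Lengths, positions and exon overlaps come from GENCODE M21 (GRCm38), in which all 37 Ensembl identifiers were found. CPM per kb is 2 to the power of the average log2 CPM, divided by the longest transcript in units of 1000 bases.

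Members, heterodimers, trimers and gene lists were chosen with earlier results of these data known. Every member was named except 1, which is counted but not reported here. Of other lists, the 3 highest averages were named with any below 0, save that marker lists are given by count, extremes and defining genes. Genes named beyond this rule were chosen after their values were seen. Python 3.11.15, numpy 2.4.6, pandas 2.3.3 and matplotlib 3.10.9 were used.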

Additional observations from a re-analysis of the deposited data

How the results depend on the processing

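No paired analysis was possible because the level analysed is 1 average over all 6 libraries. For the same reason another test, scaling, pseudocount, a filter on counts of single libraries, a replicate block and leaving out a replicate were not run, and a gene that differed between OLO and OZO would show here only at its mean. Of 44 values under an alternative, 32 kept their direction and stayed within 1.5 times, 10 moved further and 2 turned around, and these 12 all came from the transcript length. With the coding length Itgb5 over Itgb3 was 0.858 in place of 1.57, and Lamb2 over Lama4 0.999 in place of 1.06. The 10 others are ratios and shares given beside their values. The number of expressed genes was 17 with a limit of 1 on the log2 CPM scale and 23 with a limit of -1 or of 10 reads (geometric mean plus 0.5), in place of 22. Heterodimers with both chains expressed numbered 11 and 15 at the limits of 1 and -1, in place of 14, and trimers 4 at each. The share of Lama4 in the α chain level was 78.7% with joined exons, in place of 87.9%, and that of Itgav 45.3% with the coding length, in place of 38.5%. Depth limits the rarest genes. Their totals are known only as ranges because 1 average over 6 libraries does not fix the counts of single libraries.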

Other observations

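Some members that lie side by side in the genome fell on different sides of the limit and others on the same side (genes chosen after their values were seen). Itga2 and Itga1 lie on the minus strand of chromosome 13 with 20995 bases between them (GENCODE M21, GRCm38), and averaged -0.71 and 3.86 on the log2 CPM scale, with Itga1 15.4 times as high per length (9.11 times with joined exons and 23.7 times with the coding length). Itgam, Itgax and Itgad form a row on chromosome 7, with 11055 and 3718 bases between neighbours, and all were silent, with averages of -1.88, -3.38 and -4.10. Exons of 12 of the 37 genes overlap another annotated gene, 8 of them over at least 5% of their bases, and strand use in counting is not stated.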
